A study of Mus musculus with 16 samples.

Results

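The 10 genes described here are Pdk4 and the genes beside it in the switch of fuel use between feeding and fasting: Pdk2, Pdp1, Ucp3, Angptl4, Cpt1a, Cpt1b, Ppargc1a, Ppara and Ppard. They are 10 of 21011 genes in the skeletal muscle table and 10 of 38933 in the cortical bone table, and each was found in both by its symbol. Pdk4 was chosen by its measured values in the skeletal muscle contrast, and the other 9 for their place in the same pathway, so no P value is given for a member in that contrast and calls made in it are a description. The mice were C57BL/6 females aged 18 months at the start, gavaged with vehicle (VEH, a mixture of ethanol, Solutol and water) or with the aryl hydrocarbon receptor (AhR) antagonist BAY2416964 (BAY) at 30 mg/kg, 5 days per week for 8 weeks. Food was given ad libitum. The sources used here mention an overnight fast before a test of gut permeability, and state no feeding condition at tissue collection. One tibialis anterior muscle per mouse and cortical bone shafts, digested with collagenase after marrow stromal cells had been taken, were sequenced from 4 mice per group. The RNA was bulk RNA, so fewer cells of a type and less RNA per cell cannot be told apart.

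Pyruvate dehydrogenase (PDH) commits pyruvate from glucose to oxidation in mitochondria. PDH kinases (PDKs) phosphorylate and inactivate it, PDH phosphatases such as PDP1 reactivate it, and PDK4 is the kinase that fasting, fatty acids and glucocorticoids induce in muscle, so that fatty acids are burned and glucose is spared. The peroxisome proliferator-activated receptors (PPARs) sense fatty acids and drive transcription of Pdk4 and of the genes of fatty acid uptake and oxidation.

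The stretch of 250 bases before the RefSeq start site (build GRCm38.p6, written 5′ to 3′ on the strand of the gene) is shown for Pdk4 and Ucp3. In skeletal muscle Pdk4 had the largest fitted log2 fold change of the members, in size. Ucp3 is a PPAR target in muscle that did not move with Pdk4 there. The Pdk4 stretch lies on the minus strand at chr6:5496279-5496528 and the Ucp3 stretch on the plus strand at chr7:100472741-100472990. Capitals mark GCGTG, the core that AhR binds with its partner, in Pdk4, and AGGTCA, the hexamer that nuclear receptors bind, in Ucp3.
Pdk4: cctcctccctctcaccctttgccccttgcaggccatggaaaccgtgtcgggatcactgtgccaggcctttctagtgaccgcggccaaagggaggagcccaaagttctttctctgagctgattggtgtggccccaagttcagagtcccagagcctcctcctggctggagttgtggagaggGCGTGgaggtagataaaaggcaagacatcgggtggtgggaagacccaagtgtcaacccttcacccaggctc
Ucp3: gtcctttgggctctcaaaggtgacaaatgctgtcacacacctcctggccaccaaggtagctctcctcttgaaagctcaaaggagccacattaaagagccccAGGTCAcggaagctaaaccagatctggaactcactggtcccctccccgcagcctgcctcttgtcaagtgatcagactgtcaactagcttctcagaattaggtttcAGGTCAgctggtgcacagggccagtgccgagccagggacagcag

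Promoters were matched for 7 of the 10 members and searched on both strands. GCGTG stood in the promoters of Pdk4, Ppara and Ppard, and in 28.2% of all 32851 promoters of the same length. In Pdk4 it lay 67 to 71 bases before the start. The longer TNGCGTG, which contains GCGTG, was in no matched member and in 4.1% of all promoters. AGGTCA stood in Cpt1a and Ucp3, and in 14% of all promoters. In Ucp3 it occurred at 39 to 44 and at 144 to 149 bases before the start. The FoxO motif GTAAACA (3.17% of all promoters), the ERR motif TCAAGGTCA (0.387%) and the PPAR repeat AGGTCANAGGTCA (0.0335%), of which the last 2 contain AGGTCA, were in no matched member. These matches describe letters in a short window.

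On the scale of recovered reads, each skeletal muscle library held 6131951 to 9262368 reads on genes and each cortical bone library 930309 to 6951887, so 3 reads equalled 0.324 to 0.489 CPM (counts scaled to the same total in every library) in muscle and 0.432 to 3.22 CPM in bone. The muscle libraries carried fast fibre markers at a summed 121105 to 201522 CPM. The library of VEH replicate 3, whose column name carries a word for replacement, stood apart. All 12 adipocyte markers were highest in it, with a sum of 475 CPM against 56.2 to 70.8 CPM in the other 7 libraries, where Adipoq was listed at 0 in VEH replicate 2 and BAY replicate 2. Its slow and oxidative fibre markers summed to 6578 CPM against 1736 to 3216 CPM, and Myh2 alone gave 5241 CPM of that sum. Of these 10 markers 8 were highest in it, while Mb and Myl3 were highest in BAY replicate 2. Muscle fold changes are therefore given with and without VEH replicate 3. In cortical bone, osteoblast and osteocyte markers summed to between 1582 and 31523 CPM, and fast fibre markers exceeded 5000 CPM in VEH replicate 1 (9066 CPM) and BAY replicates 1 and 2 (38261 and 42085 CPM).

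Pdk4 (ENSMUSG00000019577, mm39 chromosome 6, 5483351 to 5496309, minus strand) was lower in skeletal muscle of BAY-treated mice. Its level was 68.2, 94.2, 204 and 116 CPM in VEH replicates 1 to 4 and 57.5, 28.4, 51.1 and 48.5 CPM in BAY replicates 1 to 4. No BAY library reached the lowest VEH library, and the nearest pair, VEH replicate 1 and BAY replicate 1, lay close together. The means were 120 ± 58.7 and 46.4 ± 12.6 CPM (SD, n = 4), 2.60 times higher in VEH, and the log2 fold change was -1.31 (SE 0.29). Without VEH replicate 3 the VEH mean was 92.8 ± 23.9 CPM (SD, n = 3) and the log2 fold change was -1.02 (SE 0.23). Leaving out the highest VEH library cannot make the groups overlap. Every library held at least 174 reads of Pdk4.

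Genes count as called here if limma's P value, before adjustment, was below 0.05 and the groups differed 2 times or more. By this rule Pdk4 was the only member called, 1 of 10 lower and 0 of 10 higher, where 1.09% of all genes were called lower and 1.33% higher. The BAY and VEH values of 1 of 10 members did not overlap, against 5.73% of all genes. Without VEH replicate 3 the count was again 1 of 10 lower, against 0.704% of all genes, and 0 of 10 higher, against 1.66%. Since this contrast served to choose Pdk4, nothing is read from these counts. The median log2 fold change of the 10 members was -0.11, beside 0.06 for all genes, and 0.04 beside 0.12 without VEH replicate 3.

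**Figure D1:**
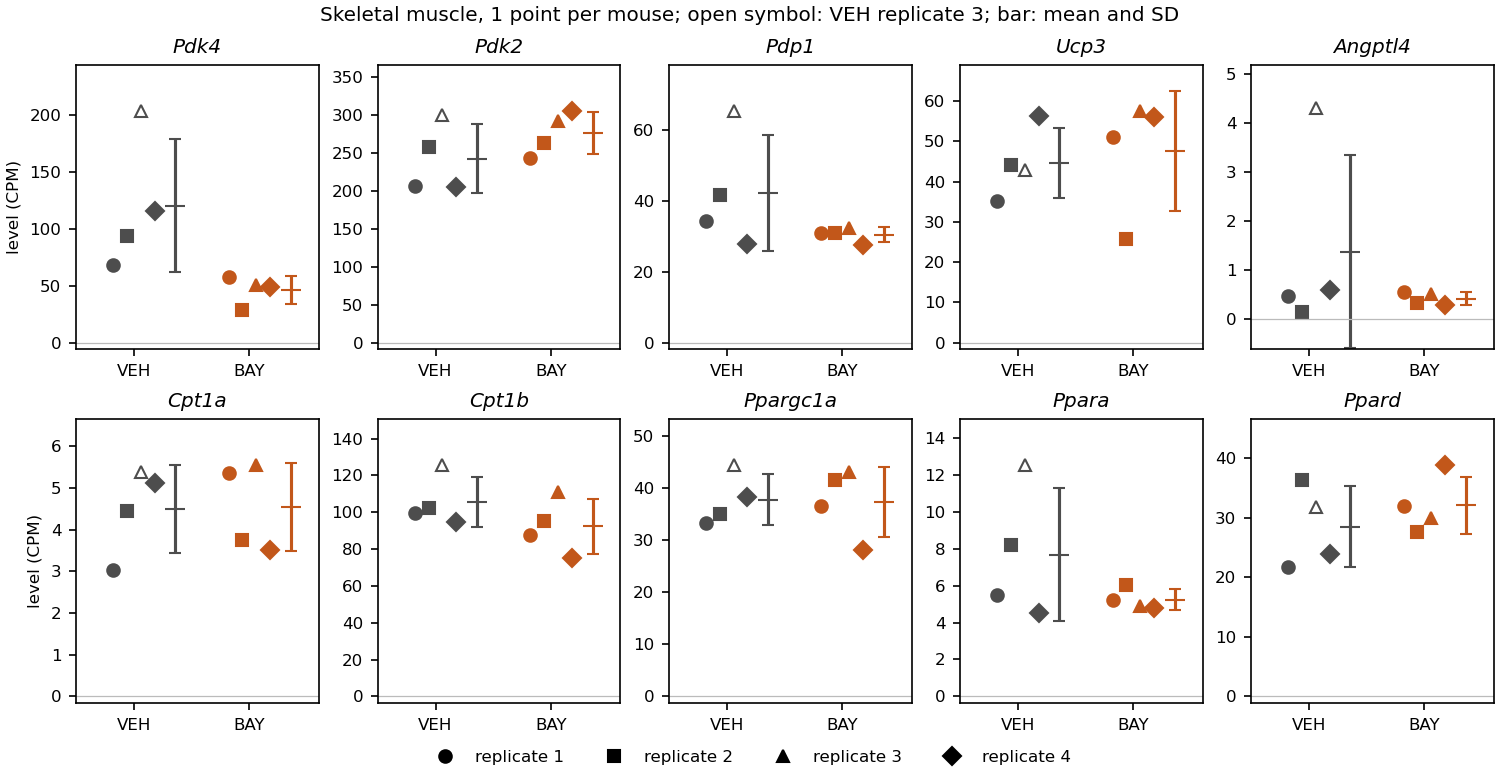
Level in CPM (vertical axes) of the 10 genes in each skeletal muscle library, for 4 VEH and 4 BAY mice, with the mean and SD beside the points and VEH replicate 3 as an open triangle. The groups separate for Pdk4 alone, and VEH replicate 3 is the highest of the 8 libraries for 6 of the 10 genes.

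The other kinase among the members, Pdk2 (ENSMUSG00000038967, chromosome 11, 94917084 to 94932180), is the PDK found widely across tissues and did not share the decrease. Its level was 206, 258, 300 and 205 CPM in VEH and 244, 264, 292 and 305 CPM in BAY. The groups overlapped, with the 2 lowest libraries in VEH. The log2 fold change was 0.20 (SE 0.15), and 0.31 (SE 0.13) without VEH replicate 3.

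The make-up of the kinase transcripts was computed per kb of exon, where levels of different genes can be compared. Pdk4 made up 39.8%, 42.6%, 56.4% and 53.5% of the summed Pdk1 to Pdk4 level in VEH replicates 1 to 4 and 32.6%, 18.2%, 26.5% and 24.8% in BAY replicates 1 to 4. Pdk2 made up 36.7% to 53.2% in VEH and 61.0% to 74.9% in BAY. The ratio of Pdk4 to Pdk2 per kb was thus 0.749 to 1.54 in VEH and 0.244 to 0.535 in BAY, with no overlap. Pdk1 stayed between 4.74% and 6.88% in all 8 libraries, and Pdk3 at or under 0.145%. These shares rest on the Pdk4 values that chose the gene and are a description.

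**Figure D2:**
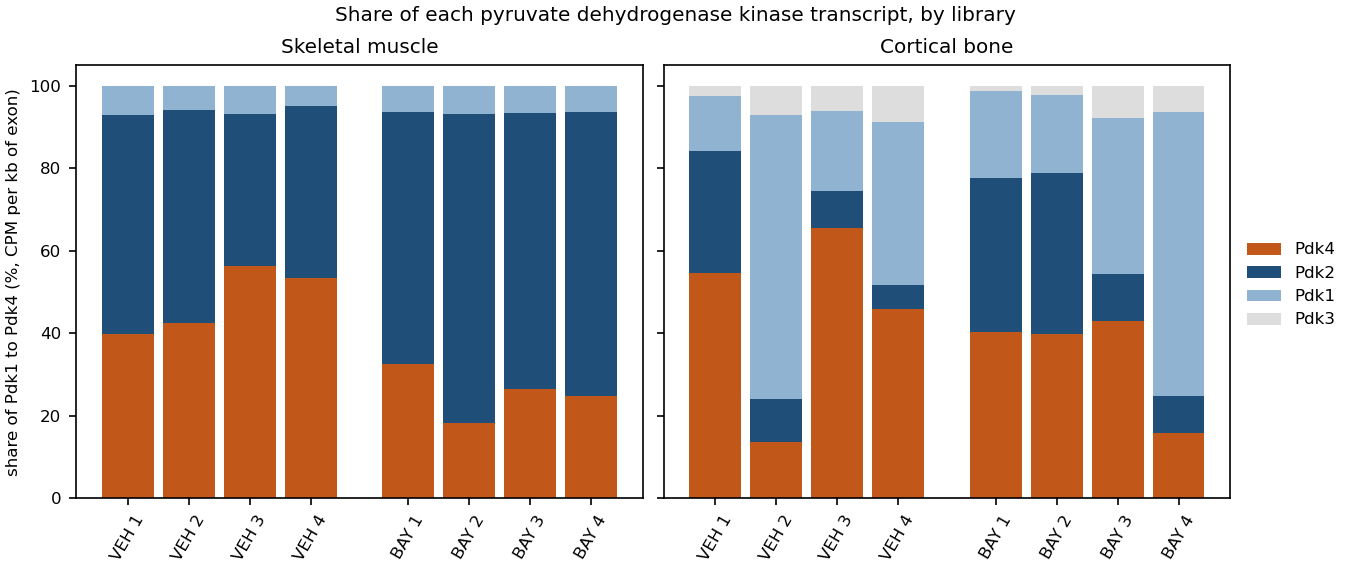
Share of Pdk1, Pdk2, Pdk3 and Pdk4 (%, of summed CPM per kb of exon, vertical axis) in each library of skeletal muscle (left) and cortical bone (right). In muscle the Pdk4 share is 39.8% to 56.4% in VEH and 18.2% to 32.6% in BAY, while in bone the shares differ more within a group, with Pdk4 between 13.6% and 65.4% in VEH.

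Pdp1 (ENSMUSG00000049225, chromosome 4, 11958184 to 11966452), the phosphatase that opposes the kinases, measured 34.2, 41.7, 65.2 and 27.8 CPM in VEH and 30.8, 31.0, 32.4 and 27.5 CPM in BAY. The BAY libraries lay in a narrow band, and VEH replicate 3 was 2.03 times the mean of the other 7 libraries. The log2 fold change moved from -0.40 (SE 0.21) to -0.17 (SE 0.14) without that library.

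Ucp3 (ENSMUSG00000032942, chromosome 7, 100122197 to 100135639), a mitochondrial carrier of muscle that rises with fatty acid supply, measured 35.3, 44.2, 42.9 and 56.2 CPM in VEH and 51.0, 25.8, 57.4 and 56.1 CPM in BAY. BAY replicate 2 was the lowest of the 8 for both Ucp3 and Pdk4, while the other 3 BAY libraries were high for Ucp3. The log2 fold change was 0.04 (SE 0.23), and 0.03 (SE 0.26) without VEH replicate 3.

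Cpt1b (ENSMUSG00000078937, chromosome 15, 89300608 to 89310066), the muscle form of the enzyme that admits long-chain fatty acids to mitochondria, measured 99.6, 102, 125 and 94.8 CPM in VEH and 87.8, 95.5, 111 and 75.1 CPM in BAY. The groups overlapped, with the highest library in VEH and the lowest in BAY, and the log2 fold change was -0.20 (SE 0.14), or -0.11 (SE 0.13) without VEH replicate 3. Its liver-type counterpart Cpt1a (ENSMUSG00000024900, chromosome 19, 3372334 to 3435733) was much lower, at 3.03 to 5.40 CPM in VEH and 3.51 to 5.55 CPM in BAY, with a log2 fold change of 0.02 (SE 0.26), or 0.12 (SE 0.27) without VEH replicate 3. Cpt1a made up 1.10% to 2.19% of the 2 transcripts per kb in muscle. Recovered reads of Cpt1b were not whole in every library (535.6 in the lowest), so reads shared with an overlapping gene are possible, which was not tested.

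Angptl4 (ENSMUSG00000002289, chromosome 17, 33992724 to 34000804) encodes a secreted inhibitor of lipoprotein lipase that fasting and PPARs induce. It was near the limit of detection, with 4, 1, 40 and 5 reads in VEH (0.466, 0.139, 4.32 and 0.596 CPM) and 4, 2, 4 and 2 reads in BAY (0.550, 0.326, 0.516 and 0.280 CPM). VEH replicate 3 was 10.5 times the mean of the other 7 libraries, whose values overlapped between the groups. The log2 fold change of -0.67 (SE 0.96) turned to 0.25 (SE 0.91) without VEH replicate 3, and to -1.40 without VEH replicate 2, which held 1 read.

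Ppara (ENSMUSG00000022383, chromosome 15, 85619184 to 85687020), the PPAR that dominates in liver, measured 5.47, 8.23, 12.5 and 4.53 CPM in VEH and 5.23, 6.03, 4.90 and 4.77 CPM in BAY. VEH replicate 3 was again the highest, and the log2 fold change moved from -0.45 (SE 0.28) to -0.18 (SE 0.23) without it. Ppard (ENSMUSG00000002250, chromosome 17, 28451674 to 28520448), the main PPAR of muscle, measured 21.8, 36.4, 31.8 and 24.0 CPM in VEH and 32.1, 27.6, 29.9 and 38.8 CPM in BAY. Its groups overlapped, with a log2 fold change of 0.19 (SE 0.17), or 0.25 (SE 0.18) without VEH replicate 3. Ppargc1a (ENSMUSG00000029167, chromosome 5, 51611592 to 51725068), which encodes the coactivator PGC-1α, differed little between the groups, at 37.7 ± 4.89 CPM in VEH and 37.3 ± 6.72 CPM in BAY (SD, n = 4). Its log2 fold change was -0.03 (SE 0.15), and 0.05 (SE 0.15) without VEH replicate 3.

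**Figure D3:**
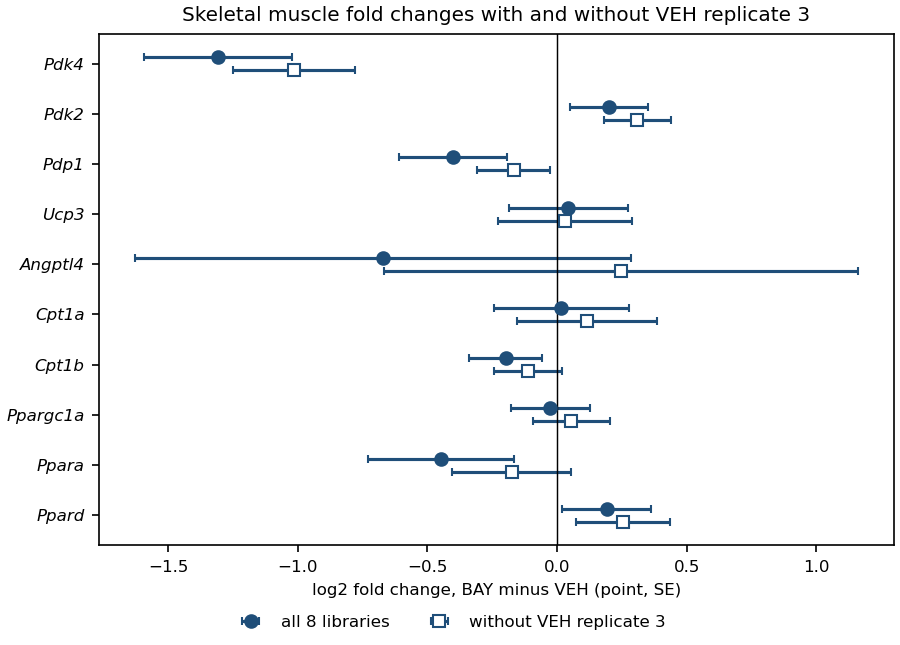
Log2 fold change of BAY minus VEH (horizontal axis, point and SE) of the 10 genes in skeletal muscle, with all 8 libraries (filled circles) and without VEH replicate 3 (open squares). Pdk4 stays at or under -1.02 in both, Angptl4 changes sign, and the other 8 genes lie between -0.45 and 0.31.

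The members differed in how much they varied between mice. Within VEH the coefficient of variation of the muscle level was 143% for Angptl4, 48.7% for Pdk4, 46.6% for Ppara and 38.7% for Pdp1, and 12.9% to 23.9% for the other 6 genes. Without VEH replicate 3 these 4 fell to 58.8%, 25.8%, 31.6% and 20.1%. Cpt1b and Ppargc1a fell from 12.9% each to 3.78% and 7.16%, and Pdk2 from 18.9% to 13.6%. Ucp3, Cpt1a and Ppard rose to 23.2%, 25.5% and 28.8%. Within BAY the coefficient was 27.1% for Pdk4 and 6.83% to 32.2% over all 10. The place of Pdk4 among the 3 most abundant members per kb of exon differed between the groups. In VEH the mean levels were 31.7 CPM per kb for Pdk4, 28.2 for Pdk2 and 26.3 for Cpt1b, and in BAY 12.2, 32.1 and 23.0. Without VEH replicate 3 the VEH means were 24.5, 26.0 and 24.7, so the first place of Pdk4 in VEH rested on that library. Over all 8 libraries, Pdk2 stood above Cpt1b in 7, and Pdk4 above Ucp3 (9.26 CPM per kb) in 8. Over both groups, Pdp1 (6.62) and Ppargc1a (5.31) were not clearly ordered, with Pdp1 higher in 5 of 8. Ppard (4.03) stood above Ppara (0.981) in every library, and Ppara above Cpt1a (0.413) in every library.

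The rest of the pathway was read from 5 lists. None of the 11 genes of the PDH complex, pyruvate entry and its other regulators was called. Over all genes 1.33% were called higher and 1.09% lower. All 11 had a lower mean log2 value in BAY and all 11 were highest in VEH replicate 3. Their median log2 fold change was -0.26, beside 0.06 for all genes. Without that library it was -0.13, beside 0.12, with 9 of 11 lower. Pdha1, the catalytic subunit of PDH, measured 199 ± 46.8 CPM in VEH and 163 ± 6.84 CPM in BAY (SD, n = 4), with a log2 fold change of -0.26 (SE 0.15), or -0.11 (SE 0.10) without VEH replicate 3. Dlat, Dld and Pdpr, other parts of the complex and its regulation, were at -0.38 to -0.14, and at -0.17 to 0.00 without it.

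Of 20 genes of fatty acid uptake and oxidation under PPAR control, 0 were called. Over all genes 1.33% were called higher and 1.09% lower. The list median of the log2 fold change was -0.23, beside 0.06 for all genes. Of the 20, 16 were lower and 15 were highest in VEH replicate 3. Without that library the list median was -0.02, beside 0.12, with 10 of 20 lower. Lpl, which releases fatty acids from lipoproteins, measured 435 CPM in VEH replicate 3, and its log2 fold change went from -0.46 (SE 0.42) to 0.13 (SE 0.17) without it. Acadm, the medium-chain acyl-CoA dehydrogenase, went from -0.25 (SE 0.20) to 0.00 (SE 0.09). Hadha, which acts on long-chain fatty acids, went from -0.23 (SE 0.16) to -0.07 (SE 0.11), and Vldlr, a lipoprotein receptor, was at 0.11 (SE 0.12) and 0.12 (SE 0.11). Cd36, a fatty acid transporter outside the rule for named genes and picked for its value, was at -0.74 (SE 0.28) and at -0.47 (SE 0.25) without it. The part of adipocyte RNA and of fibre type in the levels of VEH replicate 3 was not tested.

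**Figure D4:**
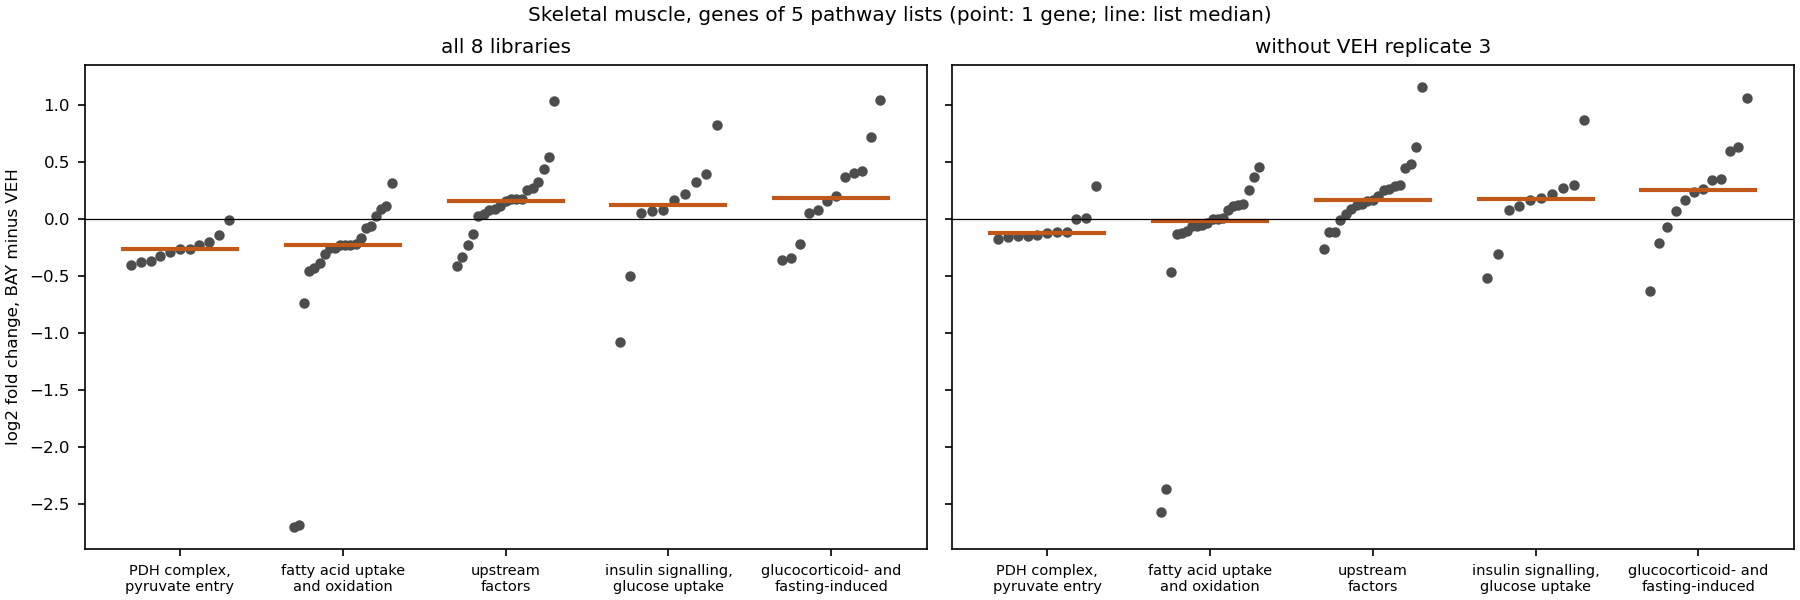
Log2 fold change of BAY minus VEH (vertical axis) of each gene (point) of 5 pathway lists in skeletal muscle, with the list median as a line, from all 8 libraries (left) and without VEH replicate 3 (right). The medians of the PDH and fatty acid lists move from -0.26 and -0.23 to -0.13 and -0.02, and fitted values of genes listed at 0 in a library depend on the offset.

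Among 19 upstream factors of the fasting response, 1 was called, where 1.33% of all genes were called higher and 1.09% lower. It was Cebpd, a transcription factor induced by stress and glucocorticoids. It rose from 7.42 ± 1.62 to 16.4 ± 6.73 CPM (SD, n = 4), a log2 fold change of 1.03 (SE 0.32), or 1.15 (SE 0.35) without VEH replicate 3, although BAY replicate 2, at 6.51 CPM, overlapped VEH. Foxo1 and Klf15, transcription factors that induce Pdk4 and amino acid breakdown in fasting, were not called, and were the 2 of 19 whose groups did not overlap, where 5.73% of all genes did not. Foxo1 measured 19.4 to 27.3 CPM in VEH and 27.5 to 35.3 CPM in BAY (log2 fold change 0.44, SE 0.14), and Klf15 24.6 to 41.3 CPM and 42.4 to 59.0 CPM (0.54, SE 0.17). Without VEH replicate 3 they were at 0.48 (SE 0.14) and 0.63 (SE 0.17). These 2 genes were chosen after their values were seen. Of the most abundant factors, Prkaa2, a catalytic subunit of AMP-activated kinase, was at -0.41 (SE 0.17), or -0.26 (SE 0.13) without VEH replicate 3. Rxra, Lpin1 and Ncor1 were at 0.08 to 0.27, and at 0.13 to 0.30 without it. The list median was 0.16 with and without that library, beside 0.06 and 0.12 for all genes.

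Among 10 genes of insulin signalling and glucose uptake, 1 was called, where 1.33% of all genes were called higher and 1.09% lower. It was Tbc1d4, the Akt substrate that holds glucose transporters inside the cell. Its level was 19.9, 21.5, 102 and 24.3 CPM in VEH and 16.9, 10.3, 16.5 and 18.7 CPM in BAY. The groups did not overlap, but VEH replicate 3 was far above the rest, and without it the log2 fold change went from -1.08 (SE 0.41) to -0.52 (SE 0.19) and was no longer called. Slc2a4, the insulin-responsive glucose transporter, and Hk2, which phosphorylates glucose on entry, were at 0.07 (SE 0.12) and 0.17 (SE 0.13), and at 0.11 (SE 0.11) and 0.17 (SE 0.12) without it. Txnip, which restrains glucose uptake, was at 0.22 (SE 0.16), or 0.27 (SE 0.16) without it. Of the 10 genes, 3 had groups without overlap, where 5.73% of all genes did: Tbc1d4, Irs1 and Pik3r1. Irs1, a docking protein of the insulin receptor, was at 0.33 (SE 0.13), or 0.30 (SE 0.13) without it, and Pik3r1, a subunit of phosphoinositide kinase, at -0.50 (SE 0.17), or -0.31 (SE 0.10). Irs2, a docking protein like Irs1, was at 0.83 (SE 0.20), or 0.87 (SE 0.22), with overlap. Pik3r1 and Irs2 were picked after their values were seen. The list median was 0.12, and 0.17 without VEH replicate 3, beside 0.06 and 0.12 for all genes.

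Among 12 genes induced by glucocorticoids and fasting, 1 was called, where 1.33% of all genes were called higher and 1.09% lower. It was Ddit4, an inhibitor of mTORC1, at 2.45 ± 0.555 CPM in VEH and 5.25 ± 1.92 CPM in BAY (SD, n = 4). The groups overlapped, with BAY replicate 2 at 2.94 CPM and VEH replicate 2 at 3.21 CPM. Its log2 fold change was 1.04 (SE 0.31), or 1.06 (SE 0.34) without VEH replicate 3. Zbtb16, a glucocorticoid-induced transcription factor, measured 99.0 to 130 CPM in VEH and 158 to 219 CPM in BAY without overlap, and at a log2 fold change of 0.71 (SE 0.14), or 0.63 (SE 0.13) without that library, missed the fold threshold. Fbxo32 and Trim63, ubiquitin ligases of muscle atrophy, were at -0.36 (SE 0.19) and 0.16 (SE 0.14), and Pfkfb3, a regulator of glycolysis, at 0.40 (SE 0.29). Without VEH replicate 3 they were at -0.21, 0.16 and 0.59. The list median was 0.18, and 0.25 without it, beside 0.06 and 0.12 for all genes. As a limit on all these calls, no listed gene had an adjusted P value in limma below 0.206. Of AhR and its targets, 5 of 6 were in the muscle table and 1 was called, where 1.33% of all genes were called higher and 1.09% lower. This was Cyp1a1, the standard reporter of AhR activity, lower with 1.25 ± 0.290 CPM in VEH and 0.491 ± 0.154 CPM in BAY (SD, n = 4) and a log2 fold change of -1.38 (SE 0.56), or -1.44 (SE 0.62) without VEH replicate 3. It rests on 9 to 12 reads per library in VEH and 2 to 5 in BAY, around the floor of 3. Tiparp and Nqo1, other AhR targets, were at -0.35 (SE 0.22) and 0.09 (SE 0.25), and at -0.24 (SE 0.22) and 0.12 (SE 0.26) without it. Cyp1b1 was listed at 0 in at least 1 library. Ahr itself was at -0.15 (SE 0.33), and -0.09 (SE 0.35) without it.

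As a description, Pearson correlations with Pdk4 were taken over the muscle libraries, on log2 of CPM plus 1, for 13170 genes averaging 1 CPM or more. The libraries differ in treatment and depth, which all genes of a library share, and no test was made. The genes most like Pdk4 over all 8 libraries were Cdk19 (r = 0.97), a Mediator kinase, Gm6663, Snx16, Gm45819, Tmed5 and E2f3, each at r of at least 0.94 and each highest in VEH replicate 3. Over the 7 libraries without it they were Eef1e1 (r = 0.97), Taf12, Gm5470, Cdk19, Tbc1d4 and Sord, so that Cdk19 was named in both. No other member was among them. Over 8 libraries the other members except Angptl4, which fell under that minimum, ranged from -0.08 (Pdk2) to 0.71 (Pdp1), and over 7 from -0.57 (Pdk2) to 0.51 (Ucp3).

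Cortical bone did not serve to choose the members and was tested, though earlier results of these data were known when they were chosen. None of the 10 was called, 0 of 10 higher and 0 of 10 lower, where 0.545% of all genes were called higher and 0.095% lower. This balance moved with the scaling, from 85.1% of calls higher in the fit used here to 66.6% with median centring and 35.5% with quantile normalization. No member had BAY and VEH values without overlap, against 0.403% of all genes. Adjusted P values in limma were 0.887 to 0.975, and the smallest unadjusted one was 0.134, for Cpt1b. Exact two-sided permutation P values of the mean log2 difference were 0.2 to 0.857, where 4 against 4 mice can reach 0.0286. With 1 library left out, Cpt1b was called higher without VEH replicate 1 (log2 fold change 2.56) or BAY replicate 3 (2.89), and Ucp3 without VEH replicate 2 (2.05). Over all libraries left out in turn, Cpt1b ranged from 1.27 to 2.89 and Ucp3 from 0.50 to 2.05. The median log2 fold change of the members was 0.55, under the median of 0.84 over all genes, and with each library centred on its median Pdk4, Pdp1, Cpt1a, Ppara and Ppard turned negative, at -0.66 to -0.29.

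Pdk4 in bone measured 15.7, 7.36, 31.2 and 29.8 CPM in VEH and 38.9, 32.3, 19.4 and 7.52 CPM in BAY. The lowest library of each group was VEH replicate 2 and BAY replicate 4, with 8 and 7 reads. The groups overlapped throughout, with a log2 fold change of 0.19 (SE 0.75, exact permutation P = 0.686). Without the 3 libraries richest in fast fibre markers, an alternative chosen after seeing the data, it was -0.65. With array weights it was 1.28.

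Pdk2 in bone followed those libraries. Its level was 19.4, 12.9, 9.92 and 8.74 CPM in VEH and 81.4, 71.5, 11.7 and 9.67 CPM in BAY, so that the 2 BAY libraries with the most fast fibre RNA stood far above the rest. The log2 fold change was 1.23 (SE 0.82) and 0.04 without the 3 libraries. Cpt1b was also highest in those 2 BAY libraries, at 6.90, 4.60, 0.465 and 2.62 CPM in VEH and 34.0, 28.9, 1.92 and 6.45 CPM in BAY. Its log2 fold change was 2.07 (SE 1.30) and, unlike that of Pdk2, stayed at 0.99 without the 3 libraries. Angptl4 went the other way and was lowest in the same 3 libraries, at 8.49, 9.83 and 14.1 CPM against 22.4 to 34.2 CPM elsewhere. Cpt1a was also low in them, at 4.60, 18.8 and 17.8 CPM against 30.1 to 59.7 CPM. The part of muscle fibre RNA in these levels was not tested.

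**Figure D5:**
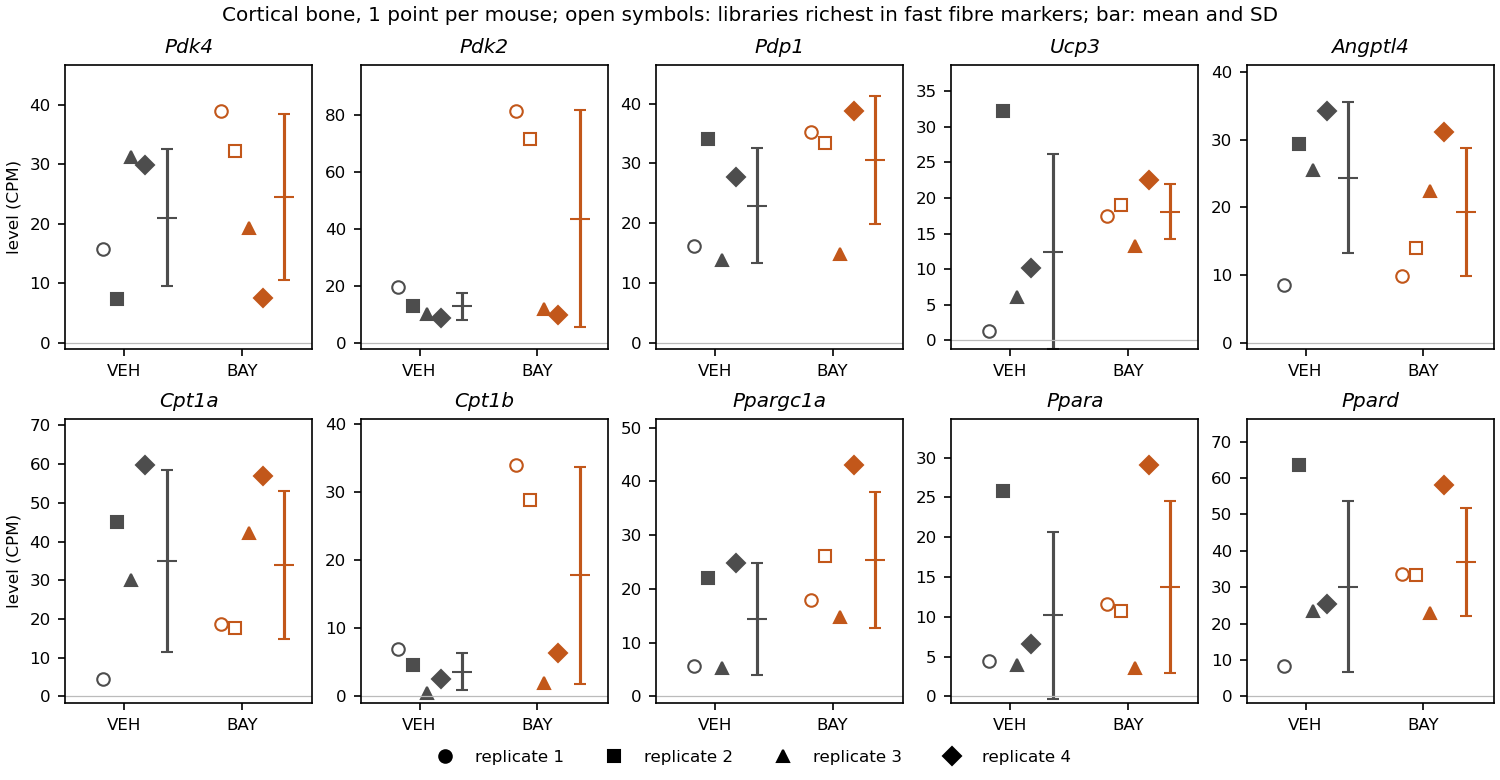
Level in CPM (vertical axes) of the 10 genes in each cortical bone library, for 4 VEH and 4 BAY mice, with the mean and SD, and with the 3 libraries richest in fast fibre markers as open symbols. For every gene the groups overlap, and Pdk2 and Cpt1b are highest in BAY replicates 1 and 2.

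VEH replicate 2 and BAY replicate 4 were high for Ucp3, Ppara and Ppard. Ucp3 measured 1.29 CPM in VEH replicate 1 and 32.2 CPM in VEH replicate 2, and 13.2 to 22.6 CPM in BAY. Ppara was at 25.8 and 29.0 CPM in those 2 libraries and 3.56 to 11.6 CPM in the other 6. They were also the 2 with the highest median level over all genes, at 12.9 and 14.4 CPM against 0.575 to 9.46 CPM. The part of that shift in these values was not tested. Pdp1 (13.8 to 38.7 CPM over the 8 libraries), Ppargc1a (5.31 to 43.0 CPM) and Ppard (8.34 to 63.5 CPM) overlapped between groups.

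The order of the genes differed between tissues. Over all 8 bone libraries the mean level ran from 6.00 CPM per kb of exon for Pdk4 down to 1.82 for Ppara, with no neighbouring pair ordered alike in all 8. The first place of Pdk4 rested on the 3 libraries rich in fast fibre markers, where it averaged 7.63 CPM per kb. In the other 5, Angptl4 was first at 6.35, followed by Ppard at 5.15 and Pdk4 at 5.02. Angptl4, last in muscle at 0.200 CPM per kb, averaged 4.87 over the 8 bone libraries. Cpt1a was 16.8% to 19.6% of the 2 Cpt1 transcripts per kb in the 3 libraries rich in fast fibre markers and 76.4% to 96.0% in the other 5. Pdk1 took 13.1% to 69.0% of the 4 kinases. None of the 78 pathway and AhR list genes was called in bone, where 0.545% of all genes were called higher and 0.095% lower. Their list medians were 0.17 to 0.70, all under the median of all genes.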

How the data were processed

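Each of 16 libraries, 8 per tissue, was assigned to its group by its label. The authors trimmed reads, aligned them with STAR (version 2.7.8a) to mm39, quantified Ensembl genes with Partek and deposited log2 values of CPM plus an offset, 0.0001 for bone and 0.0004 for muscle. The members and lists were chosen with earlier results of these data known. Per tissue, limma (version 3.58.1, R 4.3.3) was fitted to the deposited log2 values of all genes with a mean-variance trend, two-sided, with Benjamini-Hochberg adjustment. Calls needed P below 0.05 before adjustment and a difference of 2 times or more. The study applied the same limits with limma-voom, and its counts of genes differ from those given here. The sources give 4 mice per group, and the spread is that between libraries.

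Reads were recovered from the steps between low values: up to 50 reads, 81.4% to 83.6% of values in muscle and 86.4% to 88.6% in bone were whole within 0.02. Floors of 3 reads cover counting error only. Levels between genes are CPM per kb of exon (GENCODE on the same build). Promoters come from RefSeq. Exact permutation tests used 70 assignments. Fits were tested on simulated data. Other steps ran in Python 3.11.15 with scipy 1.17.1, pandas 2.3.3 and matplotlib 3.10.9. Named genes were the members, listed genes that were called or among the 4 most abundant others per list in muscle (in bone they are given by list), markers, Ahr, Cyp1a1 and the 6 genes most like Pdk4 over 8 and over 7 libraries. Exceptions are named as such. Alternatives were pseudocounts of 1 and 0.1, leaving out genes averaging under 1 CPM, median centring, quantile normalization, no trend, array weights, voom on recovered reads, a replicate block and each library left out in turn. A fit without the 3 bone libraries over 5000 CPM of fast fibre markers was added after seeing the data. Proteins were not analysed here.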

Additional observations from a re-analysis of the deposited data

Results flagged for a closer look

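Among 40 groups of 4 libraries (10 genes, 2 tissues and 2 treatments), the highest library lay far from the other 3 by Dixon's test in 2. The test flags about 1 in 20 groups by chance, so 2 among 40 is the number chance gives. Angptl4 in skeletal muscle of VEH-treated mice was at 4.32 CPM in replicate 3 and at 0.596 CPM in the next library. Ppara in cortical bone of VEH-treated mice was at 25.8 CPM in replicate 2 and at 6.55 CPM in the next. No cause was tested for either.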

How the results depend on the processing

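In skeletal muscle, Pdk4 alone among the members was called under all 17 alternatives, with log2 fold changes of -1.54 to -1.02. Since that contrast chose Pdk4, this is a description and no sign of stability. The 510 genes called became 52 with a pseudocount of 1, 193 with the filter on genes averaging under 1 CPM, 702 with voom on recovered reads and 448 to 567 with a library left out. The share of these calls that were higher was 54.9% in the fit used here, 72.0% with the filter, 50.2% with median centring and 45.8% with quantile normalization. It was 70.2% with voom on recovered reads and 37.4% (without BAY replicate 3) to 72.3% (without VEH replicate 2) with a library left out. In cortical bone the 249 genes called became 82 with the filter, 443 with median centring, 705 with quantile normalization, 408 without a trend, 901 with array weights, 1447 with voom on recovered reads and 115 to 1116 with a library left out. There 85.1% were higher in the fit used here, 66.6% with median centring, 35.5% with quantile normalization and 99.9% with voom on recovered reads. The share was 64.3% to 94.9% with a library left out and 52.5% without those rich in fast fibre markers. The members called in bone went from 0 to 2 with array weights (Pdk2 at 2.07 and Cpt1b at 3.05) and to between 0 and 1 with a library left out. Cpt1b was called without VEH replicate 1 (2.56) or BAY replicate 3 (2.89), and Ucp3 without VEH replicate 2 (2.05). With each library left out in turn, Cpt1b ranged from 1.27 to 2.89 and Ucp3 from 0.50 to 2.05. Bone fold changes turned sign as follows. Median centring gave -0.66 for Pdk4, -0.43 for Pdp1, -0.57 for Cpt1a, -0.32 for Ppara and -0.29 for Ppard. Quantile normalization gave -0.40 for Pdk4, -0.17 for Cpt1a and -0.031 for Ppara. Array weights gave -0.72 for Cpt1a and -0.40 for both Ppara and Ppard, and moved Pdk4 up to 1.28 without a change of sign. Leaving out a library gave -0.24 to 0.68 for Pdk4 and -0.53 to 0.70 for Cpt1a, and leaving out those rich in fast fibre markers gave -0.65 for Pdk4. The cause was not tested. Median centring removes the shift over all genes by construction.

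With the replicate block, 489 genes were called in muscle and 305 in bone, with 1 and 0 members, and it changed no call of a member. The labels do not tie the replicate numbers to shared mice. Same-numbered libraries correlated at -0.10 to 0.04 in muscle and -0.08 to 0.49 in bone, and 1 of 8 and 3 of 8 correlated best with their own number. Depth limits Angptl4 in muscle, with 1 to 40 reads per library, and Cpt1b in bone, with 1.31 to 76.0 reads. It also limits Pdk4 and Ppara in bone, with 7 reads in the lowest library, and Pdk2 and Ucp3, with 9.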
